A study of Arabidopsis thaliana with 2 samples.

Results

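The Hsp70 genes of Arabidopsis thaliana that serve the cytosol, the plastid and the mitochondrion were followed in cold-treated leaves of wild-type and npr1-1 plants. The 9 members were the 9 rows of the deposited tables with the gene IDs of cytosolic HSC70-1, HSC70-2, HSP70-3, HSP70-4 and HSP70-5, plastid cpHsc70-1 and cpHsc70-2, and mitochondrial mtHsc70-1 and mtHsc70-2, out of 18345 genes listed. RNA came from leaves of plants 2 weeks old that had spent 24 h at 4 °C in long days under 40 µmol photons per square metre per second, after growth under 90. One group was Col-0, the wild-type accession. The other was npr1-1, a mutant of NPR1, the co-activator through which salicylic acid switches on defence genes. Each genotype had 1 library, and both had been in the cold. No warm library was analysed here, so the data compare genotypes in the cold and do not measure the cold response. How many plants were pooled in a library is not given in the sources used here.

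Hsp70 proteins bind short hydrophobic stretches of unfolded proteins and release them in a cycle driven by ATP. J-domain proteins bring the client and trigger ATP hydrolysis, and nucleotide exchange factors reset the cycle. Plant cells keep separate Hsp70 sets in the cytosol, the plastid stroma, the mitochondrial matrix and the endoplasmic reticulum, and the organellar forms also pull newly made proteins through the envelope. In the cytosol some genes are expressed at all times (the cognates, Hsc70) and others are induced by heat through heat shock factors, which bind inverted repeats of GAA called heat shock elements.

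The ends of the coding sequences are shown for their bearing on partner binding. Cytosolic Hsp70 proteins end in a conserved acidic tail that is bound by partner proteins with tetratricopeptide repeats, among them the HOP adaptors described further on. The last 30 coding bases before the stop codon were read from the RefSeq annotation of TAIR10.1, 5′ to 3′ on the coding strand, with the last 12 bases in capitals.
HSC70-1: ggtgctggacctaagatcGAGGAGGTCGAC
HSC70-2: ggtgctggtcccaagatcGAGGAAGTCGAC
HSP70-3: ggtgcaggtcccaagattGAGGAAGTCGAC
HSP70-4: ggtgctggcccaaagattGAAGAAGTTGAT
HSP70-5: gctggaggtcccaagatcGAAGAGGTGGAT
cpHsc70-1: gtgatcgatgctgacttcACAGACAGCCAA
cpHsc70-2: gtgattgacgctgacttcACAGACAGCAAT
mtHsc70-1: gaattcgaggaggccagtGGTTCAAGGAAG
mtHsc70-2: ccagaagcagagtacgagGAAGTGAAAAAG
In the capitals HSC70-2 and HSP70-3 have the same letters, and the other cytosolic ends are close to them. The plastid pair share their first letters with each other and not with the cytosolic genes, and the mitochondrial ends are unlike each other. Over the whole coding sequence HSC70-1 and HSC70-2 were identical at 87.2% of aligned bases, HSC70-1 and HSP70-3 at 84.4%, and HSC70-1 and HSP70-4 at 79.4%. The plastid pair was identical at 85.1% and the mitochondrial pair at 75.2%, whereas HSC70-1 matched cpHsc70-1 at 60.2%.

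This likeness bears on how reads were assigned. Levels are given in CPM, reads per 1000000 reads of listed genes in the same library. The longest run of identical bases shared by any pair of member transcripts was 41, between HSC70-1 and HSC70-2 and between HSC70-1 and HSP70-3. Windows of 50 bases were cut from the longest RefSeq transcript of each gene, which can reach beyond the deposited model. HSC70-1, HSC70-2, HSP70-4, HSP70-5 and mtHsc70-1 had 0 windows in common with a transcript of another gene. Only exact matches were counted, so reads that are shorter than 50 bases or aligned with mismatches could still fit another gene. HSP70-3 shared 16.5% of its windows, mostly with AT3G09430, a gene on the opposite strand that stood at 1.47 CPM in Col-0 against 1.84 CPM in npr1-1. Their deposited models do not overlap, since that of AT3G09430 ends at 2903072 and that of HSP70-3 begins at 2903199. The RefSeq model of AT3G09430 overlaps the deposited HSP70-3 model by 19 bases. For mtHsc70-2 the share was 16.3%, all with AT4G32208, annotated as a member of the Hsp70 family. For cpHsc70-1 it was 2.07%, with AT4G03095, which is not analysed here. The plastid gene cpHsc70-2 overlaps AT5G49920 on the opposite strand by 61 bases, and AT5G49920 stood at 3.70 and 3.43 CPM. A small RNA gene, AT3G02205, which is not analysed here, lies inside HSP70-3. Whether strand was used in counting is not given in the sources used here, so reads in such overlaps cannot be placed with certainty.

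The promoters were searched for heat shock element letters, in windows from 250 bases before to 50 bases after the start of each deposited gene model. The 2-unit motif was GAANNTTC, and the 3-unit motif was GAANNTTC followed directly by NNGAA. Both strands were searched. On the other strand the 3-unit motif reads TTCNN followed directly by GAANNTTC, so each 3-unit match contains a 2-unit match. The 3-unit motif was found in 6 of the 9 members, while 0.685% of the 18238 nuclear promoter windows held it. The 2-unit motif was found in 7 members and in 12.5% of all windows. Each 3-unit match is shown with its flanks, 5′ to 3′ on the strand of the gene, with the motif in capitals, from RefSeq TAIR10.1.
HSC70-1, chr5:556553-556582, minus strand: caaccatcGAACATTCTCGAAacattttaa
HSC70-2, chr5:552685-552714, minus strand: taattacaGAACATTCTGGAAactcaagtc
HSP70-3 distal, chr3:2905893-2905922, minus strand: atcgaaccGAACATTCTCGAAcctttttaa
HSP70-3 proximal, chr3:2905764-2905793, minus strand: gagccatcGAACCTTCTCGAAactcgagta
HSP70-4, chr3:3993845-3993874, minus strand: ttactcgtGAACGTTCTCGAAagctctttg
cpHsc70-1, chr4:12589906-12589935, plus strand: atcttctcTTCTCGAAACTTCaagtggggt
cpHsc70-2, chr5:20303341-20303370, plus strand: caaccattTTCTAGAACCTTCcacttcttc
HSP70-3 was the member with 2 matches, and the match of HSC70-1 and the distal match of HSP70-3 have the same 13 letters. HSP70-5, mtHsc70-1 and mtHsc70-2 had no 3-unit match in this window, which says only that these letters are not there. For 17970 of 18154 matched genes the deposited model lies within the reference model, whose start is then at or upstream of the deposited start. With windows set on the reference start, the 3-unit motif was found in HSP70-3, HSP70-4 and cpHsc70-2, and in 0.551% of windows. Such matches are letters in the genome and were not tested as binding sites.

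**Figure D1:**
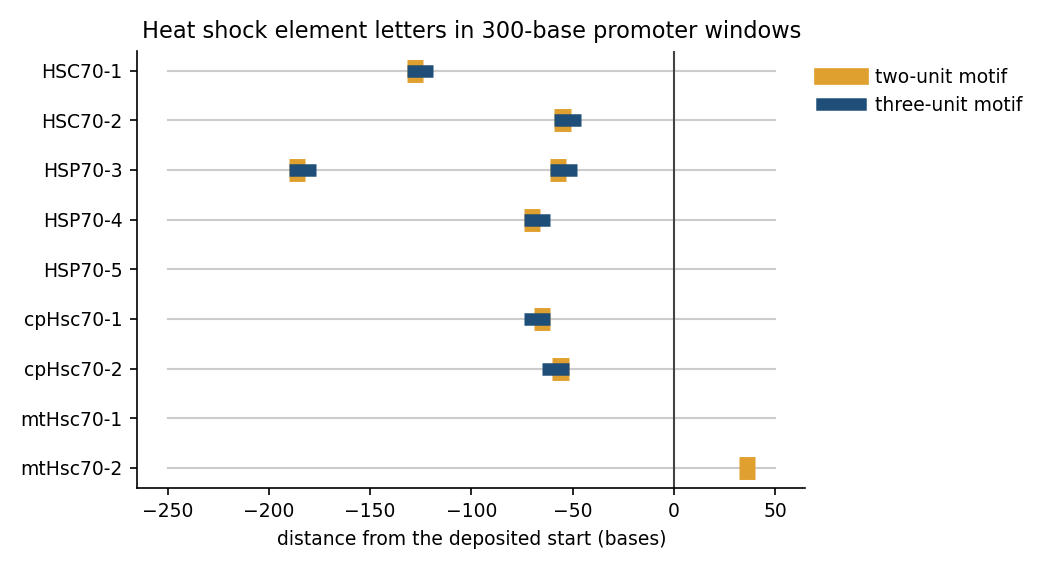
Positions of the 2-unit (orange) and 3-unit (blue) heat shock element motifs in the promoter window of each Hsp70 gene, in bases from the start of the deposited model (0). The 3-unit matches of HSC70-2, HSP70-4, both plastid genes and the proximal one of HSP70-3 begin 59 to 74 bases before the start, and that of HSC70-1 begins 132 bases before it.

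The libraries were deep and close in size, with 50864103 reads recovered for Col-0 and 50976521 for npr1-1. Leaf genes dominated both, with RBCS1A at 13067 and 13311 CPM, whereas the shoot meristem gene STM stood at 2.54 and 2.69 CPM. The floral gene AP3 and the seed gene CRU3 are not analysed here. The root gene PYK10 stood at 47.2 and 48.8 CPM. The 5 leaf markers had log2 differences of 0.40 for RCA, 0.36 for LHCB3, 0.03 for RBCS1A, 0.01 for PSBO1 and -0.12 for CA1, with a median of 0.03, and their part in the results below was not tested. The targeted gene NPR1 had 1120 reads in Col-0 against 954 in npr1-1, a ratio of 0.850. The npr1-1 allele is a point mutation, so this transcript level is no check of the genotype label. Differences are log2(CPM + 1) in npr1-1 minus Col-0, a scale that understates changes of low genes, over the 13976 genes that reached a minimum of 5 CPM in Col-0, in npr1-1 or in both. With 1 library per genotype there was no replicate check and no test, and the intervals given are 95% exact conditional binomial (Clopper-Pearson) intervals that cover counting error only. In bulk leaf RNA, fewer cells of a type and less RNA per cell cannot be told apart.

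The transcripts of the cytosolic genes differed between the libraries by very different amounts from gene to gene. At this depth small differences also exceed counting error, as for RBCS1A with a ratio of 1.019, from 1.015 to 1.022. An interval that leaves out 1 therefore does not set a gene apart, and the share of all genes with such an interval was not computed. HSP70-4 (AT3G12580, chromosome 3, 3991261 to 3993792, minus strand, TAIR10) is a heat-inducible member. It stood at 624 CPM in Col-0 against 67.6 CPM in npr1-1, from 31732 and 3447 reads. The level was 9.23-fold lower in npr1-1, with an interval from 8.91 to 9.56. Its log2(CPM + 1) difference of -3.19 was the 12th lowest of all genes past the minimum. On this scale low genes with a larger fold can rank behind it, as does Hop3, at 18.4-fold lower.

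HSP70-3 (AT3G09440, chromosome 3, 2903199 to 2905724, minus strand), an abundant cytosolic form, stood at 3722 CPM in Col-0 against 2274 CPM in npr1-1. Its ratio of npr1-1 to Col-0 was 0.611, with an interval from 0.607 to 0.616. The tandem genes HSC70-2 (AT5G02490) and HSC70-1 (AT5G02500) lie next to each other on the minus strand of chromosome 5, at 550035 to 552647 and 553745 to 556442, with no other listed gene between them. HSC70-2 stood at 565 and 368 CPM, a ratio of 0.653 from 0.641 to 0.665. HSC70-1, the main constitutive cytosolic form, stood at 5494 and 4649 CPM, a ratio of 0.846 from 0.842 to 0.851. The counting intervals of these 2 neighbours do not overlap, but they leave out the spread between plants.

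HSP70-5 (AT1G16030, chromosome 1, 5502206 to 5504535, minus strand), also known as Hsp70b and known for its induction by heat, had the lowest level of the 9 members in both libraries. It stood at 3.97 CPM in Col-0 against 3.39 CPM in npr1-1, from 202 and 173 reads, and so was below the minimum. Its ratio of 0.855 had an interval from 0.693 to 1.05, so a difference was not detectable at this depth. The heat-inducible members HSP70-4 and HSP70-5 thus stood at very different levels in cold Col-0 leaves, at 273 and 1.70 CPM per kilobase of transcript.

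**Figure D2:**
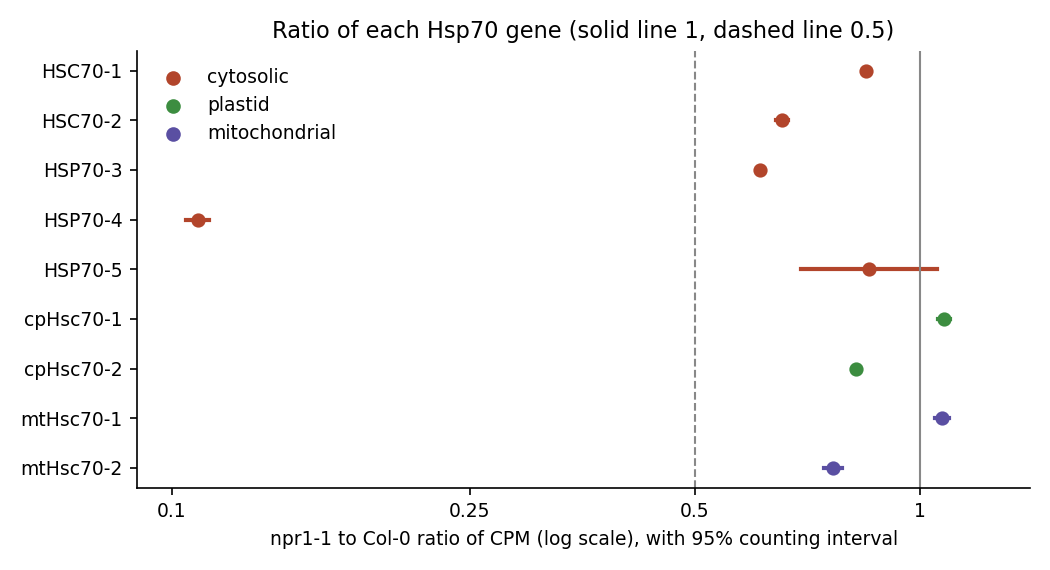
Ratio of CPM in npr1-1 to Col-0 for each Hsp70 gene on a log axis, with its 95% counting interval as a bar, which is narrower than the point for the abundant genes. HSP70-4 lies at 0.108, the other members lie between 0.611 and 1.08, and the interval of HSP70-5 spans 1.

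In the plastid the pair was split in direction. cpHsc70-1 (AT4G24280, chromosome 4, 12589988 to 12593630, plus strand) and cpHsc70-2 (AT5G49910, chromosome 5, 20303414 to 20306469, plus strand) encode the stromal Hsp70 proteins that help to import proteins. cpHsc70-1 stood at 446 CPM in Col-0 against 480.1 CPM in npr1-1, a ratio of 1.08 from 1.06 to 1.10. cpHsc70-2, the more abundant of the pair, stood at 1277 and 1048 CPM, a ratio of 0.821 from 0.811 to 0.830. The share of cpHsc70-1 in the reads of the pair was 25.9% in Col-0, with an exact binomial interval from 25.6% to 26.2%, and 31.4% in npr1-1, from 31.1% to 31.7%.

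The mitochondrial pair was split in the same manner. mtHsc70-1 (AT4G37910, chromosome 4, 17825080 to 17828180, minus strand) and mtHsc70-2 (AT5G09590, chromosome 5, 2975548 to 2978750, plus strand) encode matrix Hsp70 proteins, the motor of import into the mitochondrion. mtHsc70-1 stood at 314 CPM in Col-0 against 336 CPM in npr1-1, a ratio of 1.07 from 1.05 to 1.09. mtHsc70-2 stood at 235 and 179 CPM, a ratio of 0.764 from 0.743 to 0.785. AT4G32208, with which mtHsc70-2 shares 16.3% of its 50-base windows, stood at 22.2 and 16.7 CPM, a ratio of 0.754 from 0.689 to 0.824. Reads may be split between mtHsc70-2 and AT4G32208, and their separate values are therefore uncertain. The share of mtHsc70-1 in the pair was 57.2% in Col-0, from 56.6% to 57.8%, and 65.2% in npr1-1, from 64.6% to 65.8%.

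Over the family, 1 of the 8 members past the minimum was at least 2-fold lower in npr1-1, namely HSP70-4, and 0 were 2-fold higher. Of all genes past the minimum 0.529% were at least 2-fold lower and 0.200% at least 2-fold higher, or 0.730% in either direction. At a threshold of 1.5-fold, HSC70-2 and HSP70-3 joined HSP70-4 as lower members, and 0 members were higher by that much. The place of HSC70-2 in this count did not hold with the other scalings or the length correction described below. Of all genes past the minimum 2.06% were at least 1.5-fold lower, 0.909% were at least 1.5-fold higher and 2.97% were so in either direction. The log2 differences of the 8 members had a median of -0.34, with 6 below 0 and 2 above. Over all genes the median was -0.05, with 8240 of 13976 below 0. HSP70-3 and HSC70-2, at -0.71 and -0.61, were at percentiles 1.28 and 1.82 of all differences. mtHsc70-2, cpHsc70-2 and HSC70-1, at -0.39, -0.28 and -0.24, were at percentiles 5.91, 11.6 and 16.2. The 2 members above 0, cpHsc70-1 at 0.11 and mtHsc70-1 at 0.10, were at percentiles 75.9 and 74.7.

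Levels of different genes were compared per kilobase of transcript. In Col-0 the order was HSC70-1 at 2314 CPM per kilobase, HSP70-3 at 1635, cpHsc70-2 at 535, HSP70-4 at 273, HSC70-2 at 245, cpHsc70-1 at 182, mtHsc70-1 at 130, mtHsc70-2 at 95.3 and HSP70-5 at 1.70. In npr1-1 HSP70-4 held the eighth place, not the fourth, at 29.6 CPM per kilobase, below both mitochondrial genes. The first 3 places were held by the same genes in both libraries, HSC70-1 at 1958, HSP70-3 at 999 and cpHsc70-2 at 439 CPM per kilobase in npr1-1. cpHsc70-1, at 195, stood above HSC70-2, at 160, in npr1-1 and below it in Col-0. Without replicates it cannot be said which neighbours in this order differ beyond the spread between plants.

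**Figure D3:**
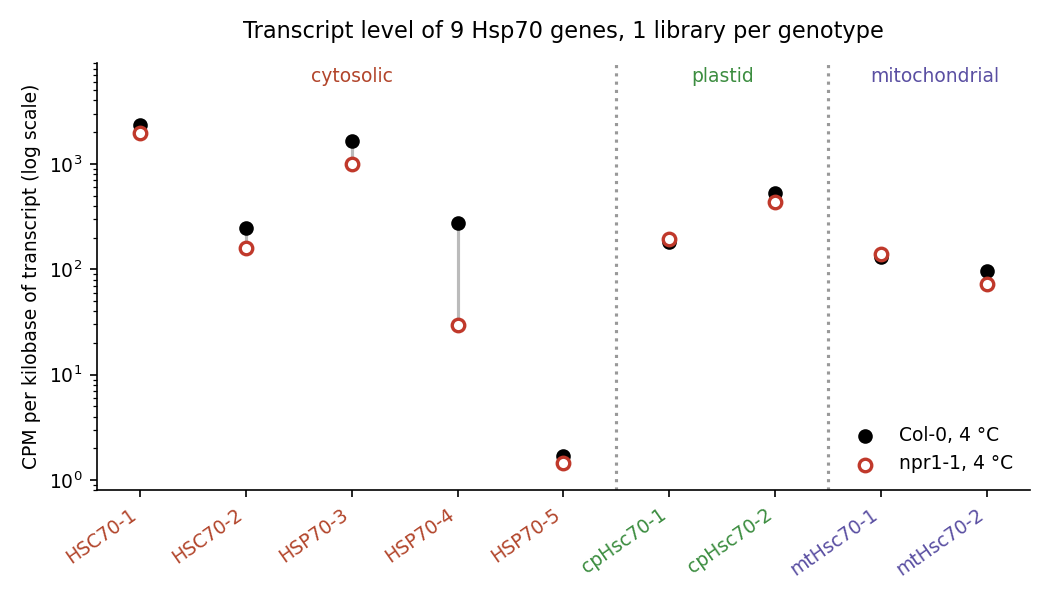
Transcript level of each Hsp70 gene in CPM per kilobase of transcript on a log axis, filled for the Col-0 library and open for the npr1-1 library, grouped by compartment. HSP70-4 goes from 273 to 29.6, while HSP70-5 stays below 2 in both libraries.

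The summed transcript of a compartment shows where the Hsp70 reads went. Together the 5 cytosolic genes reached 10408 CPM in Col-0 against 7362 CPM in npr1-1, or 1.04% and 0.736% of all reads over listed genes. The ratio of these sums was 0.707, with an interval from 0.704 to 0.710. HSP70-4 had by far the lowest ratio, but it accounted for 18.3% of the difference of -3046 CPM between the cytosolic sums. HSP70-3 accounted for 47.5%, HSC70-1 for 27.7% and HSC70-2 for 6.44%. Without HSP70-4 the ratio of the cytosolic sums was 0.746.

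The make-up of the cytosolic set differed between the libraries by more than counting error. HSC70-1 held 52.8% of the cytosolic reads in Col-0, with an exact binomial interval from 52.6% to 52.9%, and 63.1% in npr1-1, from 63.0% to 63.3%. HSP70-3 held 35.8% and 30.9%, and HSC70-2 held 5.42% and 5.0%. HSP70-4 held 5.99% in Col-0, from 5.93% to 6.06%, and 0.918% in npr1-1, from 0.888% to 0.949%. Per kilobase the shares were close to these, 51.8% and 62.2% for HSC70-1 and 6.12% and 0.941% for HSP70-4.

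The organellar sums were closer to 1. The plastid pair summed to 1723 CPM in Col-0 against 1528 CPM in npr1-1, a ratio of 0.887 from 0.878 to 0.896. The mitochondrial pair summed to 549 and 515 CPM, a ratio of 0.939 from 0.923 to 0.955. The counting intervals of the cytosolic, plastid and mitochondrial ratios do not overlap one another, but they leave out the spread between plants, which was not measured. Each organellar sum joins a member above 1 and a member below 1.

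**Figure D4:**
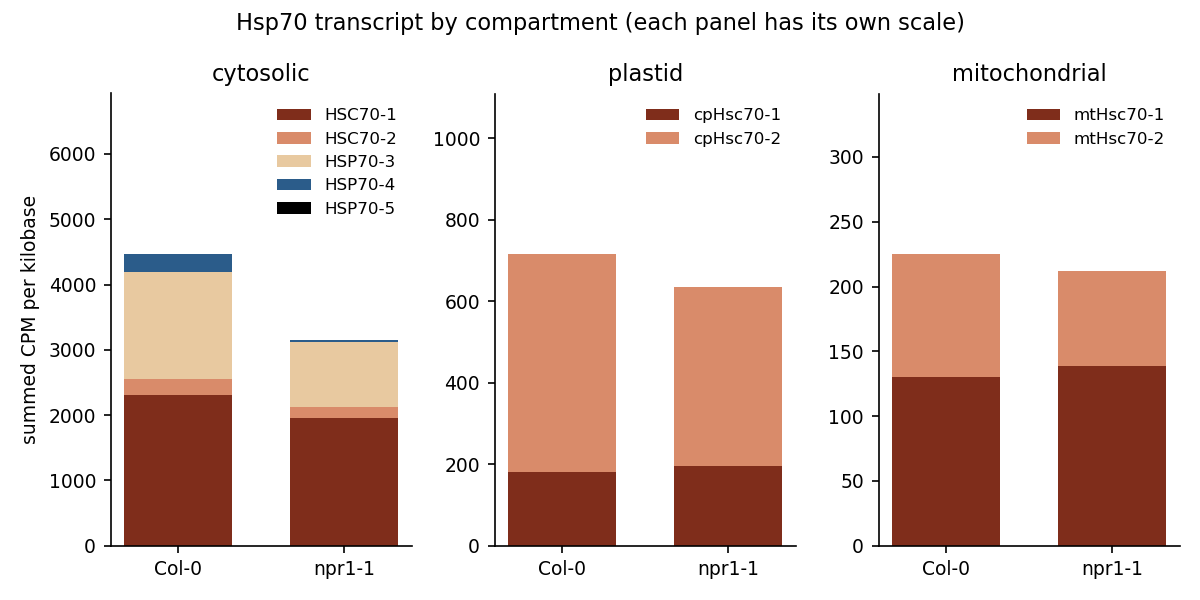
Summed CPM per kilobase of the Hsp70 genes of each compartment, stacked by gene, in the Col-0 and npr1-1 libraries. Each panel has its own scale starting at 0. The cytosolic stack goes from 4469 to 3148, the plastid stack from 716 to 634 and the mitochondrial stack from 225 to 212.

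The rest of the Hsp70 superfamily had no gene past 2-fold. The group was listed with 9 genes, of which 8 were in the tables and 7 passed the minimum. At least 2-fold apart were 0 of the 7, against 0.730% of all genes past the minimum. The 7 log2 differences were below 0, as were 8240 of the 13976 over all genes, with a median of -0.48 and a range from -0.55 to -0.21. BIP1 and BIP2, the Hsp70 proteins of the endoplasmic reticulum, stood at 236 and 161 CPM and at 176 and 126 CPM in Col-0 and npr1-1. They share 22.9% and 24.8% of their 50-base windows with each other, and their separate values are therefore uncertain. The Hsp110-type exchange factor gene Hsp70-15 stood at 912 and 651 CPM, and its tandem neighbour HSP91 (HSP70-14) at 441 and 360 CPM. These 2 also share sequence, 12.8% of the windows of Hsp70-15. AT1G11660 (HSP70-16) stood at 51.8 and 44.8 CPM, and AT4G16660 (HSP70-17) at 88.8 and 71.5 CPM. ERD2 (HSP70-18), a gene named for its response to dehydration, stood at 8.04 and 5.30 CPM. HSP70T-2, below the minimum, was higher in npr1-1, at 1.30 CPM in Col-0 against 1.90 CPM, a ratio of 1.47 from 1.06 to 2.04. BIP3 is not analysed here.

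Among the cytosolic J-domain genes the largest difference was that of a single low gene. Of 10 listed genes 8 were in the tables and passed the minimum, 1 was at least 2-fold lower, 0 were 2-fold higher, and the median was -0.38 with 7 below 0. Over all genes past the minimum 0.529% were at least 2-fold lower and 0.200% higher, with 8240 of 13976 below 0. AT2G20560, which encodes a DnaJ protein, stood at 15.2 CPM in Col-0 against 3.30 CPM in npr1-1. It passed the minimum through Col-0 alone, so a lower level in npr1-1 was a condition of its place in the count. Its level was 4.61-fold lower, with an interval from 3.90 to 5.48. J2 and J3, the abundant partners of cytosolic Hsp70, stood at 348 and 245 CPM and at 731 and 565 CPM. J2 overlaps AT5G22050 on the opposite strand by 255 bases, which leaves its reads uncertain. AT1G10350 had -0.41, and the median member AT4G28480 had -0.39. AT2G20560 and AT4G28480 overlap genes on the opposite strand that were not listed, by 39 and 37 bases.

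Among the cytosolic exchange factors and adaptors, 2 genes stood apart from the others. Of 13 listed genes 12 passed the minimum, 2 were at least 2-fold lower and 0 were 2-fold higher, and the median was -0.15 with 9 below 0. The shares over all genes past the minimum were 0.529% lower and 0.200% higher, with 8240 of 13976 below 0. Hop3, an adaptor that links Hsp70 to Hsp90, had 569 reads in Col-0 against 31 in npr1-1, or 11.2 and 0.608 CPM. Its level was 18.4-fold lower, with an interval from 12.8 to 27.3. Hop3 also passed the minimum through Col-0 alone. Its longest RefSeq transcript shares 4.39% of its 50-base windows with AT4G12390. That transcript is longer than the deposited Hop3 model of 2006 bases, so the share need not bear on the reads counted. The sister genes Hop1 and Hop2 stood at 71.0 and 81.9 CPM and at 162 and 134 CPM. Hop2 overlaps AT1G62750 on the opposite strand by 110 bases. Fes1A, an exchange factor of cytosolic Hsp70, stood at 169 CPM in Col-0 against 45.5 CPM in npr1-1. It was 3.71-fold lower, with an interval from 3.55 to 3.89. Its relatives Fes1B and Fes1C were low, at 3.09 and 2.12 CPM and at 7.98 and 8.57 CPM. HIP1, which binds Hsp70, was the median member at 159 and 141 CPM.

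The differences of the organellar partners had medians close to that of all genes. Over all genes past the minimum 0.730% were at least 2-fold apart. Of 17 listed plastid partners 15 passed the minimum, none of them was 2-fold apart, and the median was -0.06. Their largest differences were those of Cpn60beta2, a chaperonin subunit, at -0.40, of the J-domain gene J11 at -0.34 and of the disaggregase gene CLPB3 at -0.29. Cpn60beta2 overlaps AT3G13480 on the opposite strand by 339 bases, and CLPB3 overlaps AT5G15440 by 70 bases. AT4G39960, the median member, had -0.06. On the opposite strand it overlaps AT4G09955, a long noncoding RNA gene that is not analysed here, by 382 bases and AT4G39970 by 81 bases. Of 14 listed mitochondrial partners 13 passed the minimum, none of them was 2-fold apart, and the median was 0.02. AT5G61880 (PAM16L), of the import motor, stood at 4.93 and 8.53 CPM, and so passed the minimum through npr1-1. CLPB4 had -0.24, the chaperonin gene HSP60 -0.23, and the median member TIM44-2 0.02.

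**Figure D5:**
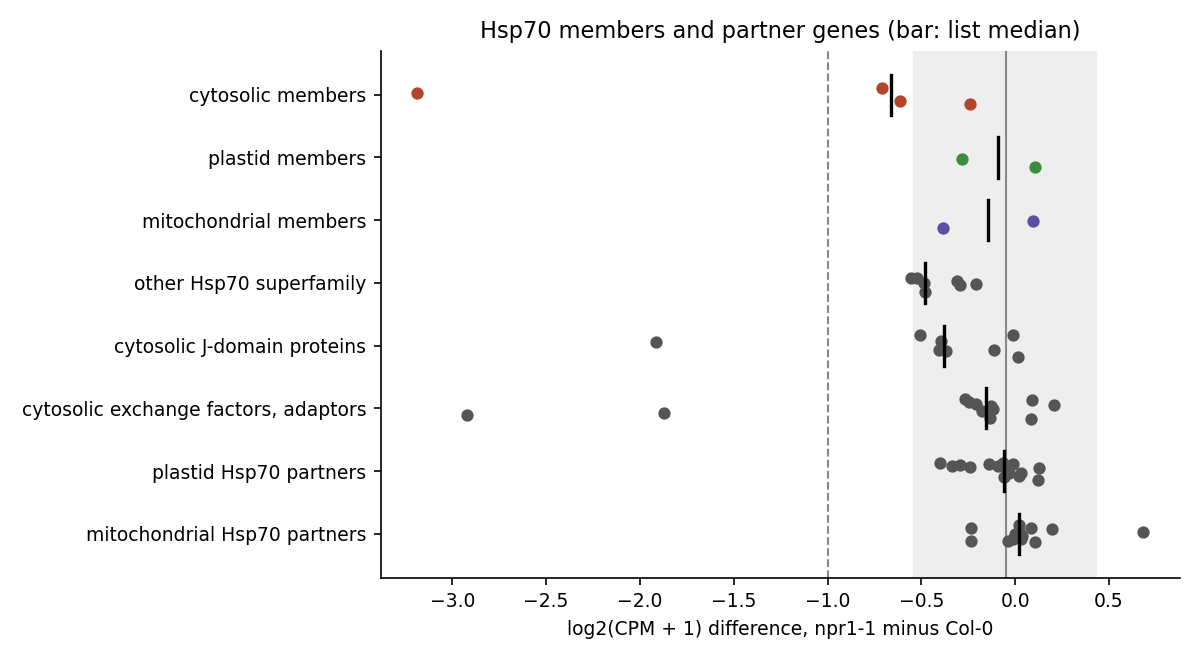
Difference of log2(CPM + 1), npr1-1 minus Col-0, of each Hsp70 member and partner gene past the minimum, by list, with the list median as a black bar. The grey band holds the central 95% of all genes, from -0.54 to 0.43, the solid line is their median of -0.05 and the dashed line marks 2-fold lower. The 4 points left of the dashed line are HSP70-4, Fes1A, Hop3 and AT2G20560, of which Hop3 and AT2G20560 passed the minimum through Col-0 alone.

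The 3-unit heat shock element motif was also counted in the promoter windows of these partners. Partner windows were set on the deposited start alone, where 0.685% of the 18238 nuclear windows held the motif. It was found in 1 of 8 cytosolic J-domain genes, AT2G20560, and in 1 of 13 exchange factors and adaptors, Hop3. One match was in 1 of 17 plastid partners, EMB1241, a GrpE-type exchange factor gene at 155 and 169 CPM. There was none, 0 of 13 and 0 of 8, among the mitochondrial partners and the other Hsp70 genes. The 6 members with the motif had log2 differences of -3.19 for HSP70-4, -0.71 for HSP70-3, -0.61 for HSC70-2, -0.28 for cpHsc70-2, -0.24 for HSC70-1 and 0.11 for cpHsc70-1. Of these, only HSP70-3, HSP70-4 and cpHsc70-2 also held the motif in windows on the reference start. Members without the motif had -0.39 for mtHsc70-2, -0.18 for HSP70-5, which was below the minimum, and 0.10 for mtHsc70-1. The 3 partners with the motif had -2.92 for Hop3, -1.91 for AT2G20560 and 0.13 for EMB1241. Fes1A, at 3.71-fold, had no 3-unit match in the window. Whether the motif bears on the differences was not tested.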

How the data were processed

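The deposited values are CPM per gene, per the file headers, with a decimal comma, and each library's values sum to 1000000. Per the submitters' processing notes, TopHat2, DESeq2 and TAIR10 played some role, not further described. How reads were counted, or genes filtered, is not given in the sources used here. These deposited CPM were used unchanged. Dividing by the worth of 1 read gave whole numbers within 0.01 for 100% of values, and these reads served for intervals. PCR copies are not separate molecules. Since the values are CPM with 1 library per genotype, no count test was run.

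All 18154 matched nuclear gene models of TAIR10 overlap their TAIR10.1 models, and 17970 lie within them, so TAIR10.1 sequence was read at the deposited coordinates. Promoter windows and coding sequences were cut from that genome, in place of the RefSeq promoter and protein tables first planned. Python 3.11.15, numpy 2.4.6, pandas 2.3.3, scipy 1.17.1, Biopython 1.88 and matplotlib 3.10.9 were used. The steps were tested on simulated data.

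Members and lists were chosen with earlier results of these data known. Named genes are all members, the rest of the superfamily, NPR1, the 3 largest differences and the median member of each partner list, genes that overlap or share sequence with a member, and the 3 genes with a difference nearest to that of HSP70-4. J3, Hop1, Fes1B, Fes1C, EMB1241 and the genes next to HSP70-4 were named after their values were seen. Alternatives were other scalings, pseudocounts, minimums, folds, sums and a length correction.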

Additional observations from a re-analysis of the deposited data

How the results depend on the processing

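HSP70-4 was the 1 member at least 2-fold apart under both scalings, both pseudocounts, both minimums, a fold of 4 and the length correction, and at a fold of 1.5 there were 3. Among these, HSC70-2 had a log2 difference of -0.57 with either scaling and -0.52 with the length correction, each short of 1.5-fold. The 102 genes at least 2-fold apart became 61 with a pseudocount of 5 CPM, 129 with one of 0.1 CPM, 153 with a minimum of 1 CPM or none, 415 at a fold of 1.5 and 31 at a fold of 4. They became 97 under both scalings and 101 with the length correction. Median-ratio and trimmed-mean scaling moved the median of all genes by 0.04. The cytosolic, plastid and mitochondrial ratios of sums became 0.729, 0.914 and 0.967 with either scaling. Without the member with the largest difference they became 0.746, 1.08 and 1.07, where the organellar values are by construction those of the remaining single gene and say nothing about stability. Of 44 recomputed member differences 23 left the counting interval and 0 changed sign. Of 35 list medians, whose alternatives were chosen after seeing the data, 4 moved by more than 0.05 and 0 changed sign. HSP70-5 has no length-corrected value, since that correction was defined over genes past the minimum. No paired analysis was possible because each genotype has 1 library. Depth limits HSP70-5 alone among the members, and the spread between plants was not measured.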

Other observations

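The 3 listed genes on each side of HSP70-4 on chromosome 3 had ratios of npr1-1 to Col-0 from 0.764 for FDM3 to 1.30 for AT3G12587, against 0.108 for HSP70-4. The counting intervals lay below 1 for FDM3, from 0.666 to 0.877, and AT3G12590, from 0.828 to 0.975. They lay above 1 for AT3G12587, from 1.11 to 1.53, and NUDT16, from 1.04 to 1.35, and held 1 for TRFL9 and FYD. These intervals cover counting error only, and the share of all genes whose interval leaves out 1 was not computed. FYD, the nearest listed gene on one side, stood at 27.1 CPM in Col-0 against 27.5 CPM in npr1-1. AT3G12587, the nearest on the other side, stood at 5.49 and 7.14 CPM.

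By the difference on the log2(CPM + 1) scale over these 2 libraries, the 3 genes nearest to HSP70-4 at -3.19 were AT2G01021 at -3.21, AT5G48570 at -3.14 and AT5G15360 at -3.31. AT5G48570, with the synonym FKBP65, is a peptidyl-prolyl isomerase gene and stood at 17.3 and 1.08 CPM. AT5G15360 had 512 reads in Col-0 against 6 in npr1-1. Both passed the minimum through Col-0 alone. AT2G01021 stood at 439 and 46.6 CPM, but 100% of its 50-base windows occur in AT3G06365, so its reads cannot be placed.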
